A study of Mus musculus with 18 samples.

Results

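The 35 genes described here carry the folding of proteins in the endoplasmic reticulum (ER), their disposal when folding fails, and the stress signals that couple both to transcription. They were taken by name, as Syvn1 and 34 genes of ER chaperones, oxidoreductases, ER-associated degradation and the unfolded protein response, out of 18194 genes with a probe set that the array annotation assigns to a single gene. The choice was made with earlier results of these data known, so counts of members that pass a test only describe them. Each gene is represented by the probe set of its highest mean signal over 18 arrays, with both probe sets for Syvn1, which gives 36 probe sets. All 36 passed the filter on low values. Ero1lb is listed on the array under its newer symbol, Ero1b.

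Liver RNA of male mice was hybridised to 18 Affymetrix mouse arrays in 6 groups of 3. The mice were labelled Hmgn1+/+ (wild type) or Hmgn1-/- (knockout); Hmgn1 encodes a nucleosome-binding protein of the HMGN family. Each genotype was examined without injection at 4 weeks, and at a time labelled 12 weeks after an injection at 4 weeks of age of either saline or N-nitrosodiethylamine (DEN) at 10 µg per g of body weight. DEN is a carcinogen that liver enzymes activate. The 2 genotypes descend from littermates of heterozygous parents but were bred on as separate homozygous lines, so that line and genotype cannot be told apart. The series text counts the 12 weeks from the injection, while the titles leave the starting point unstated, so the age at collection is uncertain. Nothing in the labels assigns the 3 arrays of a group to different mice. The p-values below therefore come from setting each difference against the spread between arrays of a group. That spread may be technical and not between mice, and the small number of arrays limits the precision.

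Secretory and membrane proteins of the hepatocyte enter the ER, where chaperones such as BiP (Hspa5) and oxidoreductases fold them. Proteins that stay misfolded are passed by Sel1l and the ubiquitin ligase Hrd1, the product of Syvn1, back across the membrane to the proteasome, which is ER-associated degradation (ERAD). A load of misfolded protein activates the membrane sensors IRE1 (Ern1), PERK (Eif2ak3) and ATF6, whose transcription factors XBP1, ATF4 and cleaved ATF6 raise chaperone, ERAD and amino acid genes.

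The promoters of several of these genes hold the ER stress response element (ERSE), which is bound by NF-Y with ATF6 or XBP1. The window from 250 bases before to 50 bases after the annotated start (RefSeq, GRCm38.p6) was given for 31 of the 35 genes. ERSE, searched on both strands as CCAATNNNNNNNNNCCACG, was found in the windows of 10 of these 31 genes (32.3%), against 39 of 32851 windows in the whole table (0.119%). The 10 genes were Calr, Canx, Creld2, Derl3, Dnajc3, Ero1b, Hsp90b1, Hspa5, Pdia6 and Syvn1. The stretches of 4 of them are shown, Syvn1 and the chaperone and co-chaperone genes Hspa5, Creld2 and Dnajc3. Of these 4, only Syvn1 passed the test used below in a comparison without saline arrays. They are written 5′ to 3′ along the gene, with the fixed letters of the element in capitals, and Creld2 holds it on the opposite strand.
Syvn1, chr19:6046512-6046570, plus strand: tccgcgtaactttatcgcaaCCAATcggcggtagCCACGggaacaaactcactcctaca
Hspa5, chr2:34772005-34772063, plus strand: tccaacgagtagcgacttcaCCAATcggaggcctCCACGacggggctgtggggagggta
Creld2, chr15:88819500-88819558, plus strand: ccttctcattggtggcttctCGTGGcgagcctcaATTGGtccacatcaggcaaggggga
Dnajc3, chr14:118937807-118937865, plus strand: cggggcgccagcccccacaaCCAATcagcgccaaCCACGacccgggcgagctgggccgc

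The related element ERSE-II, searched on both strands as ATTGG, any base, then CCACG, was in 12 windows of the table (0.0365%) and in 2 of the 31 genes, Herpud1 and Dnajb11. The Herpud1 stretch is shown because this gene, like Syvn1, was lower with DEN than without injection in the labelled knockout. Against saline, Syvn1 was called lower with DEN in the labelled knockout and Herpud1 was not called, as given further on.
Herpud1, chr8:94386357-94386407, plus strand: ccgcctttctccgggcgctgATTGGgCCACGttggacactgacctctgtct

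The element of ATF4 with C/EBP factors, TGATGNAA, was in 4 of the 31 genes (Asns, Chac1, Herpud1 and Trib3; 12.9%, against 3.97% of all windows). The core of the unfolded protein response element, TGACGTG, was in 1, Hspa5 (2.01% of all windows). A match describes these letters in these windows and not the binding of a factor.

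Facts that bear on the whole series were as follows. Hmgn1 itself did not separate the labels: on all 4 of its probe sets the 9 wild-type and the 9 labelled knockout arrays overlapped, the brightest at signals of 5039 to 7948 and 4838 to 6894. Neither the deleted part of the gene nor the position of the probes is given in the sources used here, so this signal does not check the labels, and "knockout" below always means the arrays labelled so. The 6 saline arrays differed from the other 12 in their range: their brightest signals were 16720 to 21752, against 46967 to 60173, and spiked hybridisation controls averaged 8.50 to 8.92 in log2, against 10.9 to 11.6. Treatment with saline and this difference cannot be told apart. Values after quantile normalization are therefore given beside many of the comparisons with saline. Saline values without them are on the deposited scale only and may depend on the scaling. The 6 hepatocyte markers summed to signals of 76240 to 99550 on the saline arrays and 178400 to 207000 on the others, while Krt19 and Krt7 of bile duct cells did not pass the filter on low values. The ratio of the 3′ to the 5′ Gapdh control, which rises as RNA degrades, was 1.13 to 2.19 in wild-type and 1.35 to 1.70 in knockout 4-week livers, and 1.02 to 1.13 and 0.907 to 0.937 with DEN.

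At 4 weeks, before any injection, the labelled knockout livers had more Syvn1 and Eif2ak3 mRNA than the wild type. Most of the other folding and ERAD genes had small positive differences that did not pass the test. Syvn1 on probe set 1428070_at read 337, 388 and 349 in the wild type and 435, 541 and 619 in the knockout. The 2 groups did not overlap, and the difference was 0.54 on the log2 scale (SE 0.13, limma with Benjamini-Hochberg adjustment over 27022 probe sets, adjusted p = 0.0296). Signals are the authors' MAS5 values scaled to one mean per array, and all differences below are in log2 of the signal plus 16 and two-sided tests by this method, with an adjusted p under 0.05 as the threshold. On 1443609_s_at, the other Syvn1 set, the wild type read 890, 1076 and 869 and the knockout 1461, 1329 and 1388. These groups did not overlap either, and the difference was 0.56 (SE 0.16, adjusted p = 0.0785). Eif2ak3, which encodes PERK, read 155, 137 and 143 in the wild type and 187, 244 and 208 in the knockout, a rise of 0.50 (SE 0.13, adjusted p = 0.0446).

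These were the 2 probe sets called among the 36, where 2.26% of all tested probe sets passed and 1.27% were higher. With centred array medians 1 of the 36 was higher and 0 lower, and 46% of all calls were on the higher side, against 56.1%. Of the 36, 33 had a positive difference, against 14506 of all 27022 tested probe sets. The median was 0.22, against 0.02 over all tested probe sets. The largest value that did not pass was that of Herpud1, a membrane component of the Hrd1 complex, at 0.60 (SE 0.17, adjusted p = 0.0705). Dnajb9, a co-chaperone of BiP that restrains IRE1, was at 0.34 (SE 0.10, adjusted p = 0.0741), and its arrays did not overlap, at 1820 to 1978 against 2348 to 2460. Under quantile normalization limma called Herpud1 (0.63, adjusted p = 0.0467), Dnajb9 (0.36, adjusted p = 0.0423) and Xbp1 (0.36, adjusted p = 0.0347) beside Syvn1 1428070_at, and no longer Eif2ak3, with 2.05% of all probe sets called. Both calls were fragile: without knockout replicate 3 Syvn1 1428070_at was at 0.43 (adjusted p = 0.159), without knockout replicate 2 Eif2ak3 was at 0.41 (adjusted p = 0.187), and Eif2ak3 passed in 0 of the 6 fits that left out 1 array.

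Markers of other cells also differed in this comparison. All 8 Kupffer cell and macrophage markers were lower in the labelled knockout, 2 of them called (Csf1r and Tyrobp), and their summed signal was 3502 to 3762 against 5336 to 5711 in the wild type. The summed stellate cell markers were 2471 to 2624 against 3553 to 3935, with Dcn called lower. Markers of pancreatic acinar cells, which are rich in ER chaperones, went the other way: they summed to 786 to 881.5 in the knockout against 464.2 to 566.7 in the wild type. Cela1, the brightest of these, was called higher, 2 of the 4 tested acinar markers were positive, and the defining Cpa1, Ctrb1, Cpb1 and Cela2a did not pass the filter on low values. The bile duct cell markers summed to 113.8 to 131.3 against 73.49 to 111.9, with 0 of 2 tested called. In whole liver, fewer cells of a type and less RNA per cell cannot be told apart, and the part of these cells in the values above was not tested. The 6 hepatocyte markers had a median difference of 0.04, with 0 called.

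**Figure D1:**
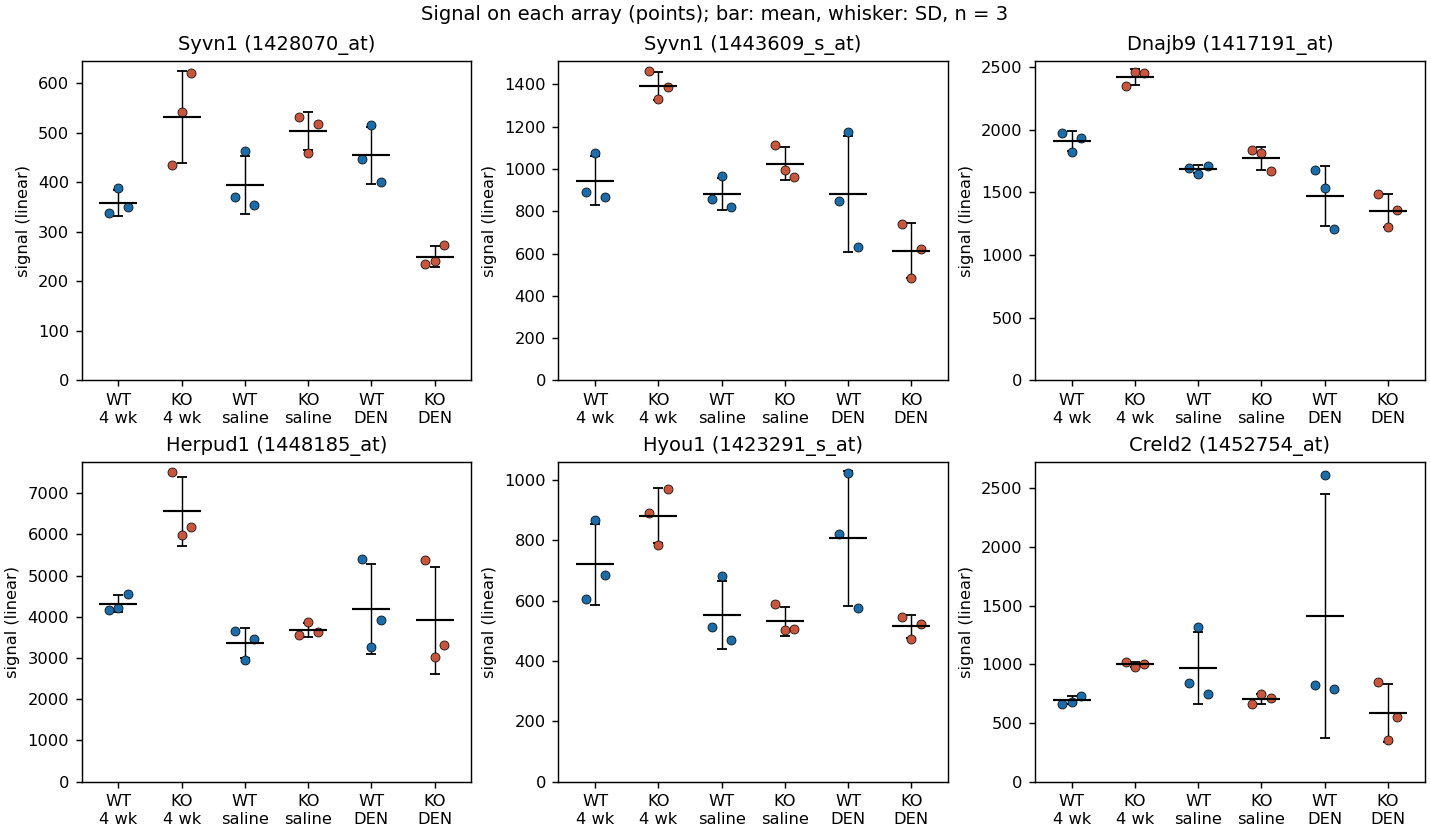
Deposited signal (linear, y axis from 0) on each array for both Syvn1 probe sets, Dnajb9, Herpud1, Hyou1 and Creld2 in the 6 groups, with blue for wild type and red for labelled knockout; points are arrays, bars the mean and whiskers the SD of 3. The mean of Syvn1 on 1428070_at is highest in the 4-week (532) and saline (502) knockout groups, and it is lowest, at 235 to 274, on the 3 knockout arrays with DEN, and 1 wild-type DEN array stands at 2611 for Creld2.

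With DEN the order of the genotypes for Syvn1 was the opposite. On 1428070_at the wild type read 447, 515 and 399 and the labelled knockout 235, 241 and 274, the 3 lowest values of the 18 arrays. The difference was -0.82 (SE 0.13, limma with Benjamini-Hochberg adjustment, adjusted p = 0.0354), the 1 call among the 36 members where 0.0074% of all probe sets, 2 in number, passed. On 1443609_s_at the wild type read 846, 1173 and 630 and the knockout 741, 482 and 620, so that the groups overlapped, and the difference of -0.49 (SE 0.16, adjusted p = 0.388) did not pass. The call on 1428070_at was lost in 4 of the 6 fits that left out 1 array, and without wild-type replicate 2 it stood at -0.73 (adjusted p = 0.220).

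The chaperones and co-chaperones of the ER lumen were all lower in knockout than in wild type with DEN, 9 of 9, at a median of -0.28. Of these 0 were called and 6 had an unadjusted p under 0.05, against 2424 of all 27022 tested probe sets. Creld2, an ER stress protein with oxidoreductase activity, had the lowest value of the 36, -1.10 (SE 0.31, adjusted p = 0.332). Hyou1, a large HSP70-type chaperone that acts as exchange factor for BiP, was at -0.60 (SE 0.17, adjusted p = 0.303), and Manf, a secreted and ER-resident cofactor of BiP, at -0.47 (SE 0.16, adjusted p = 0.399). Over all 36 probe sets 32 were lower (88.9%, against 53.8% of all tested probe sets), at a median of -0.19 against -0.02 over all tested probe sets.

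One wild-type array stood apart in these genes. With DEN, wild-type replicate 2 was the highest of the 18 arrays for 17 of the 36 probe sets, against 8.83% of all tested probe sets. Creld2 read 826, 2611 and 792 on the wild-type arrays and 846, 356 and 554 on the knockout arrays. Derl3, a derlin of the ERAD channel, read 119, 372 and 85.7 in the wild type and 124, 85.6 and 98.1 in the knockout. Hspa5 read 10730, 15820 and 9509 in the wild type and 11130, 8143 and 9917 in the knockout. For all 3 genes the groups overlapped, and replicate 2 was the highest of the 18 arrays.
Sdf2l1, a subunit of an ER chaperone complex, read 503, 750 and 347 in the wild type and 509, 287 and 303 in the knockout, with the same array on top. Replicate 2 of the knockout with DEN was the lowest of the 18 for 7 of the 36 (8.87% of all tested probe sets). Wild-type replicate 2 at 4 weeks, the array of the highest Gapdh ratio (2.19), was the lowest for 8 of the 36 (10.6%). Without wild-type DEN replicate 2 the median of the 36 for knockout minus wild type with DEN moved from -0.19 to -0.09. Plasma cells and pancreatic acinar cells are rich in these chaperones. On wild-type DEN replicate 2 the summed B and plasma cell markers were 238.4, the lowest of its group, whose other arrays read 294 and 462.5. The acinar marker sum was 707.4, between the 701.4 and 836.2 of the others. The brightest markers in these sums were Ighm and Cela1, at mean signals of 123 and 628 over the 18 arrays. The part of such cells in the values of this array was not tested.

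**Figure D2:**
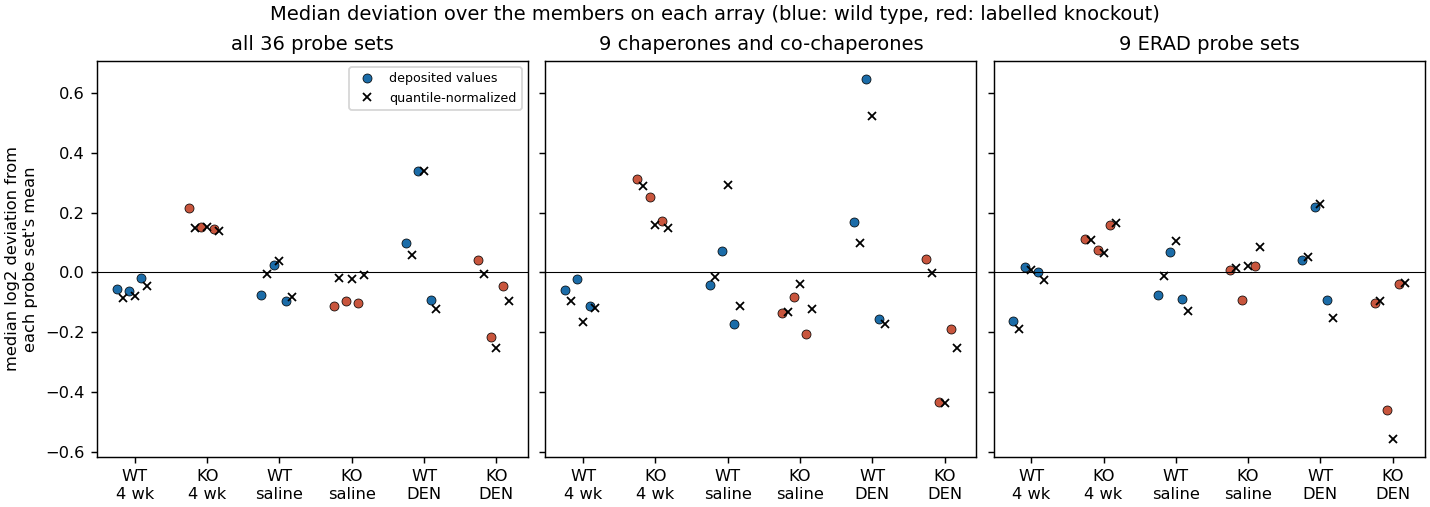
Median, over all 36 probe sets (left), the 9 chaperones and co-chaperones (middle) and the 9 ERAD probe sets (right), of each array's log2 deviation from the probe set's mean over 18 arrays; circles are deposited values, crosses quantile-normalized ones. The 3 knockout 4-week arrays lie between 0.14 and 0.22 on the left, and in the middle wild-type DEN replicate 2 stands at 0.65 and knockout DEN replicate 2 at -0.43.

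In the saline livers limma called 0 of the 36 between the genotypes, where 0.0111% of all probe sets passed. An unadjusted p under 0.05 was found for 1 of the 36, against 1426 of all 27022. That one was Syvn1 1428070_at, which read 370, 462 and 353 in the wild type and 532, 459 and 517 in the labelled knockout, a difference of 0.34 (SE 0.13, adjusted p = 0.911). Its arrays overlapped by 1 value. On 1443609_s_at the saline difference was 0.21 (SE 0.16, adjusted p = 0.993), with readings of 859, 967 and 822 against 1112, 995 and 964. Over the 36 the median was -0.05, against 0.04 over all probe sets. All 6 arrays of this comparison belong to the saline set.

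**Figure D3:**
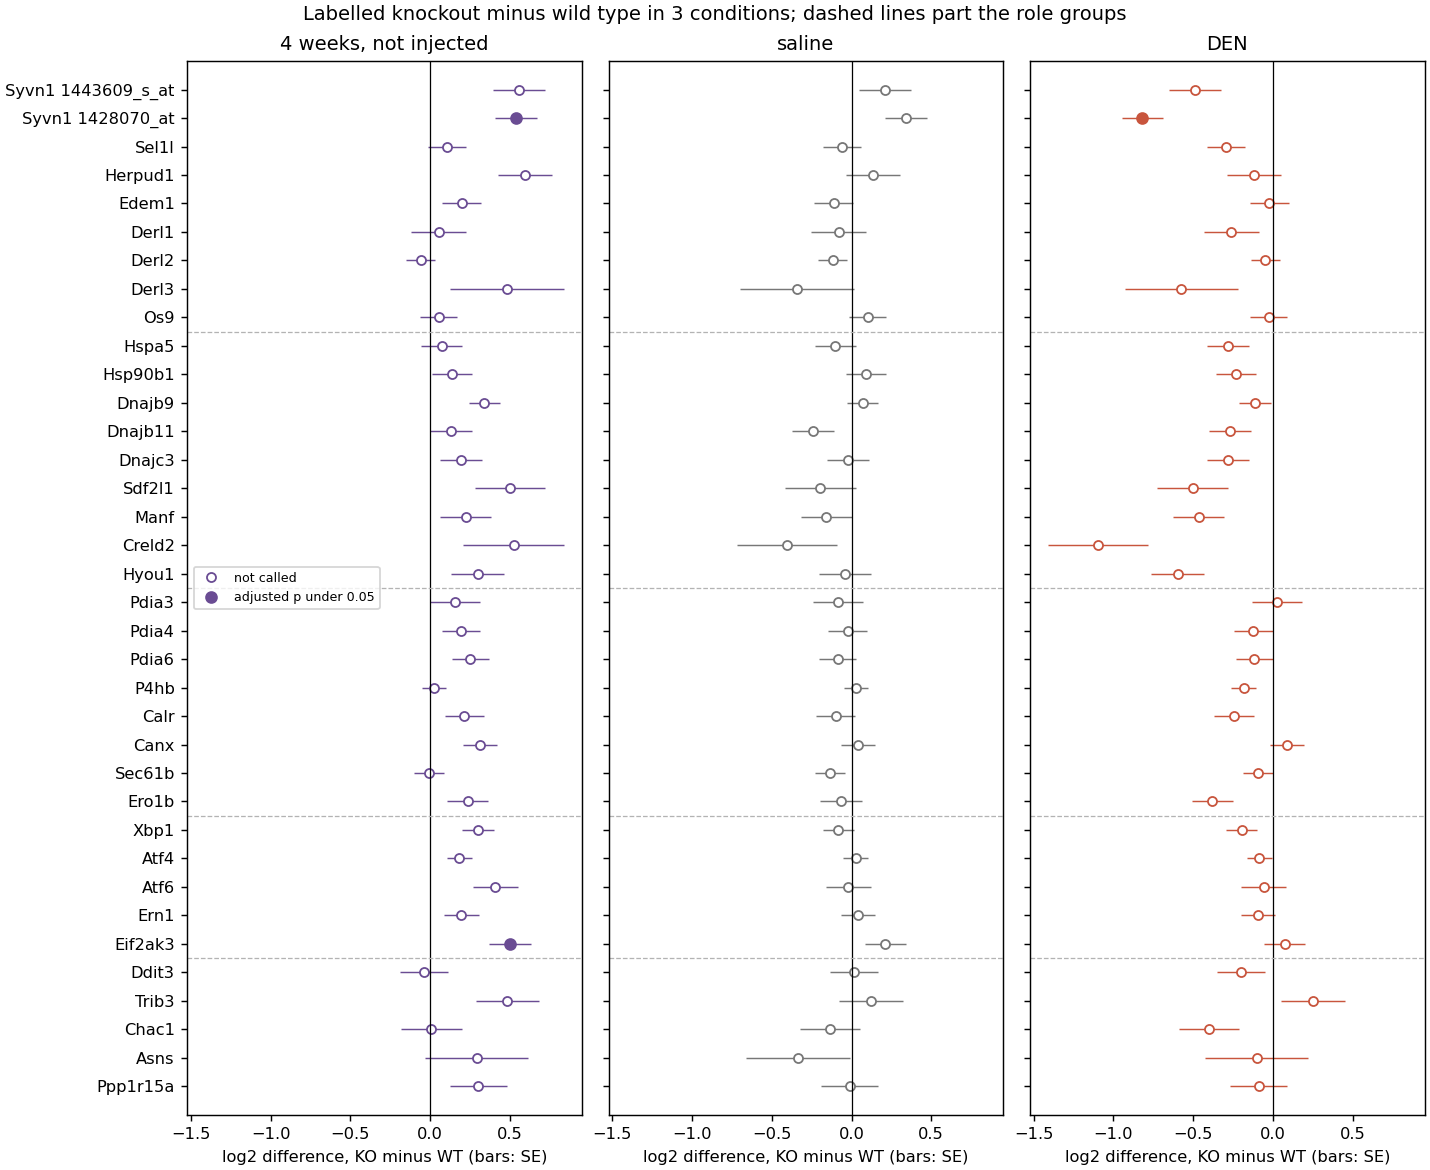
Labelled knockout minus wild type (log2 difference, bars SE) for the 36 probe sets at 4 weeks, with saline and with DEN; filled points have an adjusted p under 0.05, and dashed lines part ERAD, chaperones, lectins with disulfide enzymes and translocon, sensors, and the ATF4 and CHOP branch, from the top. Syvn1 1428070_at is filled at 0.54 at 4 weeks and at -0.82 with DEN, and Eif2ak3 at 0.50 at 4 weeks.

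Whether the genotype difference itself changed was tested as an interaction, the difference with DEN minus that at 4 weeks. It was -1.36 for Syvn1 1428070_at (SE 0.18, 95% interval -1.74 to -0.98, adjusted p = 0.00131) and -1.05 for 1443609_s_at (SE 0.23, 95% interval -1.52 to -0.57, adjusted p = 0.0346) by limma with Benjamini-Hochberg adjustment. These were the 2 calls among the 36, where 0.762% of all probe sets passed, 0.392% on the negative side. Both belong to the same gene, which was chosen with earlier results of these data known, so the count is only a description. The value of 1428070_at passed in all 12 fits that left out 1 array, and lay between -1.49 and -1.24 in them. The value of 1443609_s_at passed in 4 of the 12 and lay between -1.26 and -0.82, the last without wild-type DEN replicate 2 (adjusted p = 0.0660). Its highest adjusted p was 0.0906, without wild-type replicate 3 at 4 weeks.

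Most of the other members lay on the same side without passing. Of the 36, 35 had a negative interaction (97.2%, against 55.3% of all tested probe sets), at a median of -0.40 against -0.05. An unadjusted p under 0.05 was found for 19 of the 36, against 3780 of all 27022. With centred array medians 34 of the 36 were negative, and 75.2% of all calls were on the positive side, against 48.5%. Marker lists moved in the same comparison: all 8 Kupffer cell markers were positive (median 0.56, 1 called), the 6 stellate cell markers had a median of 0.36 with 1 called, and both tested bile duct markers were negative with 0 called. Their part in the members' values was not tested. The member above 0 was Derl2, another derlin, at 0.01 (SE 0.13). Creld2 was at -1.62 (SE 0.45, adjusted p = 0.0912), Derl3 at -1.06 (SE 0.50, adjusted p = 0.351), Sdf2l1 at -1.004 (SE 0.32, adjusted p = 0.144) and Hyou1 at -0.90 (SE 0.23, adjusted p = 0.0780). Ero1b, which reoxidises protein disulfide isomerases, was at -0.61 (SE 0.18, adjusted p = 0.125), and Xbp1 at -0.50 (SE 0.14, adjusted p = 0.103). After quantile normalization limma also called Xbp1, at -0.58 (adjusted p = 0.0360), where 0.711% of all probe sets passed.

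By role, the median interaction was -0.48 over the 9 chaperones and co-chaperones, -0.40 over the 9 ERAD probe sets and -0.43 over the 5 sensors and their transcription factors. It was -0.39 over the 5 genes of the ATF4 and CHOP branch and -0.27 over the 8 lectins, disulfide enzymes and translocon subunits. The 11 probe sets of genes with an ERSE in the promoter window were all negative, at a median of -0.48 and from -1.62 to -0.23. The 21 probe sets of genes with a window but no ERSE had a median of -0.32, with 20 negative. The first group holds both Syvn1 sets, Derl3, 4 chaperones and co-chaperones (Creld2, Dnajc3, Hsp90b1 and Hspa5) and 4 lectin and disulfide genes (Calr, Canx, Ero1b and Pdia6), and the split is given as a description.

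Against saline, the interaction of genotype with DEN passed for 0 of 27022 probe sets, with 2170 at an unadjusted p under 0.05, 3 of them among the 36. For Syvn1 it was -1.16 on 1428070_at (95% interval -1.54 to -0.78, adjusted p = 0.0681) and -0.70 on 1443609_s_at (95% interval -1.18 to -0.22, adjusted p = 0.435).

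The same difference can be read along time within each genotype, comparing DEN with the 4-week livers. The 4-week arrays are shared between this comparison and the one between genotypes at 4 weeks, so the values are not separate evidence. DEN and the age difference cannot be told apart here. In the labelled knockout 9 of the 36 fell and 0 rose, where 4.71% of all tested probe sets fell and 8.24% passed in either direction. The median of the 36 was -0.22 against -0.02. In the wild type 2 rose and 1 fell, where 1.97% of all probe sets rose, 2.44% fell and 4.4% passed in either direction, and the median was 0.17 against 0.03. With centred array medians 0 rose and 1 fell in the wild type, and 17.3% of all calls were rises, against 44.6%.

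Among the ERAD genes, both sets of Syvn1 fell in the knockout, by 1.18 (1443609_s_at, SE 0.16, adjusted p = 0.000326) and by 1.03 (1428070_at, SE 0.13, adjusted p = 0.000127). The DEN arrays lay below the 4-week arrays without overlap on both sets. In the wild type the same sets stood at -0.14 (adjusted p = 0.694) and 0.32 (adjusted p = 0.163).

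Herpud1 read 7506, 5978 and 6182 in the knockout at 4 weeks and 5387, 3033 and 3307 with DEN. It fell by 0.78 (SE 0.17, limma adjusted p = 0.00757), without overlap, while the wild type read 4174, 4210 and 4556 at 4 weeks and 5397, 3266 and 3927 with DEN, a difference of -0.07 (adjusted p = 0.863). Without knockout replicate 1 at 4 weeks, the highest array, Herpud1 was at -0.68 (adjusted p = 0.0529), and without DEN replicate 2 at -0.63 (adjusted p = 0.0522).

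Sel1l, the adaptor that holds Hrd1 in its complex, read 1662, 1576 and 1514 at 4 weeks in the knockout and 1269, 820 and 1197 with DEN. It fell by 0.55 (SE 0.12, limma adjusted p = 0.00768), and the wild type, at 1515, 1370 and 1533 against 1210, 1484 and 1292, overlapped. Of the 4 other tested Sel1l sets 1 had the same sign, with a range of -0.36 to 0.31 and 0 called, so the fall rests on 1 probe set.
Derl1 read 2261, 1650 and 2063 in the knockout at 4 weeks and 1274, 1066 and 1583 with DEN. It fell by 0.61 (SE 0.17, adjusted p = 0.0324), with its other 3 sets at -0.19 to 0.19, and the call was lost in 4 of 6 fits that left out 1 array (adjusted p = 0.158 without DEN replicate 2). Derl1 in the wild type read 1449, 2649 and 1785 at 4 weeks and 1453, 1809 and 1416 with DEN, which overlapped. Edem1, Derl2, Derl3 and Os9, the other ERAD members, did not pass in the knockout, at 0.06, 0.09, 0.11 and -0.15. In the wild type 4 of the 9 ERAD probe sets were higher and 5 lower, with 0 called. Derl3 had the highest wild-type value of the 36, 1.17. When 1 array was left out it ranged from 0.59 to 1.56 and passed in 2 of 6 fits.

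Among the chaperones, Dnajb9 fell in both genotypes. The knockout read 2348, 2460 and 2455 at 4 weeks and 1484, 1226 and 1356 with DEN, a fall of 0.83 (SE 0.10, limma adjusted p = 0.000104). The wild type read 1978, 1820 and 1931 against 1681, 1532 and 1212, a fall of 0.38 (SE 0.10, adjusted p = 0.0300), which was lost in 5 of 6 fits that left out 1 array (adjusted p = 0.131 without DEN replicate 3). The difference between both falls was -0.45 (SE 0.14, adjusted p = 0.136) and did not pass.

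Hyou1 read 892, 786 and 969 in the knockout at 4 weeks and 547, 474 and 524 with DEN. It fell by 0.76 (SE 0.17, limma adjusted p = 0.00856), without overlap. The wild type read 605, 869 and 687 at 4 weeks and 821, 1023 and 577 with DEN, which overlapped. The 2 other Hyou1 sets were at -0.23 and 0.11, so this fall too rests on 1 probe set. The remaining chaperones were lower in the knockout without passing, from -0.84 for Creld2 (adjusted p = 0.102) to -0.02 for Dnajc3. In the wild type they were higher without passing, from 0.01 for Hspa5 to 0.78 for Creld2 (adjusted p = 0.171).

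The sensors Ern1 and Eif2ak3 fell in the knockout. Ern1 read 1081, 977 and 1047 at 4 weeks and 703, 724 and 808 with DEN, a fall of 0.47 (SE 0.11, limma adjusted p = 0.0116), without overlap. Its 3 other sets were at -0.13 to 0.05, and without knockout replicate 1 at 4 weeks it was at -0.43 (adjusted p = 0.0601). The wild type read 866, 888 and 950 against 756, 964 and 688 and overlapped.
Eif2ak3, for which 1 probe set was tested, fell from the 4-week values given above to 161, 147 and 148 with DEN, by 0.44 (SE 0.13, adjusted p = 0.0393). This call was lost in all 6 fits that left out 1 array (adjusted p = 0.149 without knockout replicate 2 at 4 weeks). In the wild type it read 131, 180 and 125 with DEN, around its 4-week values. Atf6 read 512, 532 and 486 in the knockout at 4 weeks and 434, 402 and 498 with DEN, a difference of -0.20 (SE 0.14, adjusted p = 0.432), and 466, 297 and 394 against 412, 573 and 416 in the wild type, at 0.27 (SE 0.14, adjusted p = 0.300).

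Xbp1, whose spliced form is the transcription factor of the IRE1 branch, rose in the wild type. It read 5511, 6294 and 5347 at 4 weeks and 6863, 8375 and 7064 with DEN, a rise of 0.38 (SE 0.10, limma adjusted p = 0.0349), without overlap. Its 3 other probe sets were also positive, at 0.26 to 0.81, with 2 called, and the call on the set described was lost in 4 of 6 fits that left out 1 array (adjusted p = 0.159 without DEN replicate 2). The knockout read 7010, 7156 and 6926 at 4 weeks and 5518, 7312 and 6684 with DEN, which overlapped. These probe sets do not separate the spliced from the unspliced mRNA.

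Of the ATF4 and CHOP branch, Chac1, a glutathione-degrading enzyme, rose in the wild type. It read 66.3, 105 and 90.1 at 4 weeks and 173, 145 and 126 with DEN, a rise of 0.68 (SE 0.19, limma adjusted p = 0.0440), without overlap. The call was lost in all 6 fits that left out 1 array (adjusted p = 0.134 without replicate 1 at 4 weeks). In the knockout it read 91.1, 75.2 and 93.5 against 121, 78.4 and 129, which overlapped.
Asns, the asparagine synthetase, read 180, 117 and 356 in the wild type with DEN and 361, 158 and 103 in the knockout, and no comparison of it passed. Ddit3, which encodes CHOP, Trib3, a pseudokinase induced by CHOP, Ppp1r15a, the phosphatase subunit that reverses PERK signalling, and Atf4 had 0 calls in these comparisons. Their group means were 91.4 to 117 (Ddit3), 91.1 to 144 (Trib3), 94.5 to 136 (Ppp1r15a) and 751 to 884 (Atf4).

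The lectins, disulfide enzymes and the translocon subunit had 0 calls in either genotype. These are Pdia3, Pdia4, Pdia6, P4hb, Ero1b, Calr, Canx and Sec61b. In the knockout they ranged from -0.41 for Ero1b (SE 0.13, adjusted p = 0.0559) to 0.37 for Pdia3 (SE 0.16, adjusted p = 0.156), and in the wild type from 0.05 for P4hb to 0.49 for Pdia3 (SE 0.16, adjusted p = 0.0763).

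Other measures moved with the fall in the labelled knockout. The Gapdh ratio of its DEN arrays lay below that of its 4-week arrays without overlap, so that ratio and condition cannot be told apart in this genotype. With the ratio as a covariate limma called 1 of the 36, Dnajb9, at -0.87 (adjusted p = 0.0339), while Syvn1 stood at -0.98 (adjusted p = 0.0710) and -0.92 (adjusted p = 0.125) and Derl1 at 0.02. Without the 4-week array of the highest ratio in each genotype, 8 of the 36 were called. Of the 8 Kupffer cell markers 7 rose, with a summed signal of 4511 to 7175 with DEN against 3502 to 3762 at 4 weeks. The stellate cell sum was 2766 to 4116 against 2471 to 2624, with Dcn called higher and 1 of the 6 markers lower. The bile duct sum was 85.61 to 105.7 against 113.8 to 131.3. Of its 2 tested markers Sox9 was called lower, and the other was at 0.19. In the wild type the acinar sum was 701.4 to 836.2 with DEN against 464.2 to 566.7 at 4 weeks. Cela1 and Cela3b were called higher, and the other 2 of the 4 tested acinar markers were lower. Of 4 endothelial markers 1 was called higher and 2 were lower. Of 5 tested B and plasma cell markers 1 was called higher and 1 was lower. The part of these cells in the members' values was not tested.

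**Figure D4:**
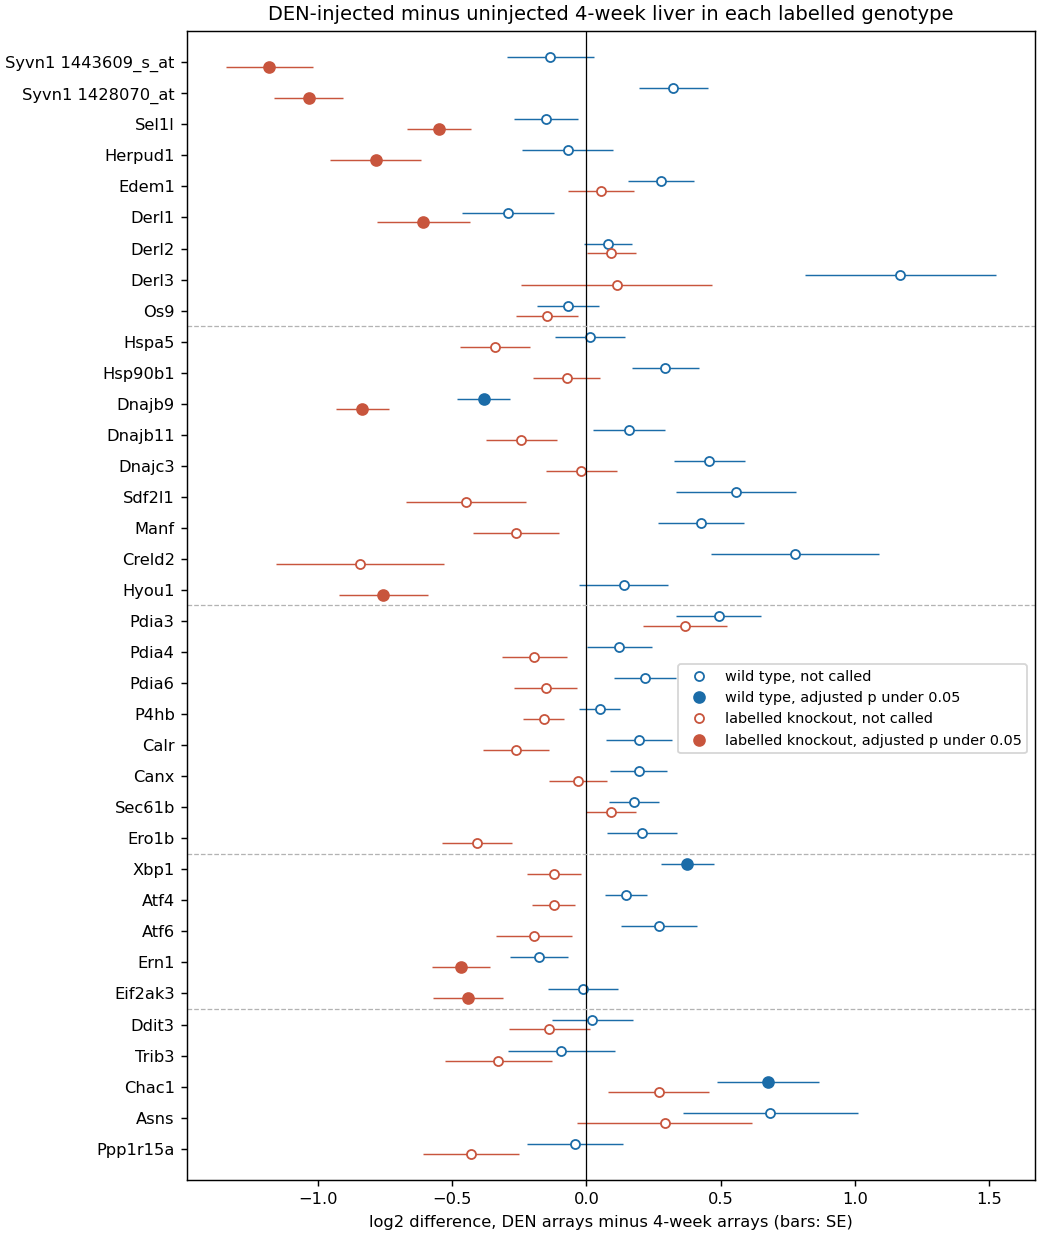
DEN minus 4-week livers (log2 difference, bars SE) for the 36 probe sets, blue for wild type and red for labelled knockout; filled points have an adjusted p under 0.05. The 9 filled red points all lie below 0, at -1.18 and -1.03 for Syvn1, and the filled blue points are Dnajb9 at -0.38, Xbp1 at 0.38 and Chac1 at 0.68.

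Against saline, the injected controls of the same label of 12 weeks, Syvn1 was again the member that fell furthest with DEN in the labelled knockout. It fell by 0.74 on 1443609_s_at (SE 0.16, limma adjusted p = 0.00328) and by 0.96 on 1428070_at (SE 0.13, adjusted p = 2.19e-05), and by 0.75 (adjusted p = 0.00465) and 0.92 (adjusted p = 0.000136) after quantile normalization. The saline and DEN arrays did not overlap on either set. The wild-type values were -0.04 (adjusted p = 0.934) and 0.20 (adjusted p = 0.445).

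Dnajb9 also fell in the knockout, from 1837, 1813 and 1668 with saline, by 0.39 (SE 0.10, limma adjusted p = 0.00998) and by 0.44 after quantile normalization (adjusted p = 0.00373). Without DEN replicate 2 it was at -0.32 (adjusted p = 0.0571). Eif2ak3 fell by 0.41 (SE 0.13, adjusted p = 0.0383; -0.32, adjusted p = 0.122 after quantile normalization). Ero1b fell by 0.40 (SE 0.13, adjusted p = 0.0411; -0.44, adjusted p = 0.0331 after quantile normalization), with its 2 other sets at -0.50 and 0.14. When 1 array was left out, the call was lost in 6 of 6 fits for Eif2ak3 (adjusted p up to 0.164, without saline replicate 3) and in 5 of 6 for Ero1b (up to 0.156, without DEN replicate 2). On the deposited scale, Herpud1 was at 0.04 (adjusted p = 0.911) and Hyou1 at -0.04 (adjusted p = 0.896) with DEN against saline. After quantile normalization neither passed. The values depended on the scaling: over the 9 ERAD probe sets, both Syvn1 sets included, the median was -0.09, and -0.23 after quantile normalization. A lower signal of Herpud1 and Hyou1 was already present with saline: the knockout saline arrays read 3548, 3877 and 3621 for Herpud1 and 588, 504 and 505 for Hyou1. Against 4 weeks these were falls of 0.82 (SE 0.17, adjusted p = 0.00268) and 0.71 (SE 0.17, adjusted p = 0.00772), and after quantile normalization of 0.57 (adjusted p = 0.0353) and 0.73 (adjusted p = 0.00964). The wild type was also lower with saline without passing: Herpud1 read 2959 to 3664, against 4174 to 4556 at 4 weeks. When 1 array was left out, that wild-type difference was -0.43 to -0.28 for Herpud1 and -0.53 to -0.23 for Hyou1.

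The brightest members depended on the scaling. Hspa5 rose with DEN against saline by 0.73 in the wild type (SE 0.13, limma adjusted p = 0.000928) and by 0.55 in the knockout (SE 0.13, adjusted p = 0.00580), but after quantile normalization it was at 0.17 (adjusted p = 0.522) and 0.01 (adjusted p = 0.971). The 2 other Hspa5 sets were at 0.01 and 0.28 in the wild type and at -0.33 and -0.01 in the knockout, with 0 called. P4hb rose by 0.28 in the knockout (SE 0.08, adjusted p = 0.0147) and fell by 0.31 after quantile normalization (adjusted p = 0.00220). Xbp1 rose by 0.62 in the wild type (SE 0.10, adjusted p = 0.000310) and by 0.51 in the knockout (SE 0.10, adjusted p = 0.00126), with 0.27 (adjusted p = 0.0995) and 0.10 (adjusted p = 0.507) after quantile normalization. All 3 are among the 4 brightest of the 36 probe sets by mean signal.

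In all, 4 of the 36 rose and 0 fell with DEN against saline in the wild type, where 3.4% of all probe sets rose, 3.13% fell and 6.54% passed in either direction, and 0 of the 36 passed after quantile normalization, where 3.64% did. In the knockout 4 rose and 5 fell (6.42% and 8.65% of all probe sets, 15.1% in either direction). After quantile normalization 0 rose and 7 fell, where 1390 of all 27022 probe sets rose and 1562 fell (10.9% in either direction). With centred array medians 3 rose and 0 fell in the wild type and 7 rose and 2 fell in the knockout, where 28.5% and 65.9% of all calls were rises, against 52% and 42.6% on the deposited scale. The 7 falls after quantile normalization were both sets of Syvn1, Hsp90b1, P4hb, Dnajb9, Dnajc3 and Ero1b.
Between saline and 4 weeks, 2 rose and 2 fell in the wild type (4.22% and 4.04% of all probe sets, 8.26% in either direction). After quantile normalization 1 rose and 0 fell, where 826 of all 27022 probe sets rose and 597 fell (5.27% in either direction). The 1 rise was that of Dnajc3, an inhibitor of PERK and BiP co-chaperone, at 0.60 (adjusted p = 0.00935). In the knockout 10 fell and 0 rose (4.84% and 5.09% of all probe sets, 9.94% in either direction). After quantile normalization 6 fell and 0 rose, where 887 of all 27022 probe sets fell and 1059 rose (7.2% in either direction). The 6 falls were Herpud1, Pdia6, Dnajb9, Dnajb11, Hyou1 and Xbp1. With centred array medians 12 fell, and 24.4% of all calls were rises, against 51.2%. The other Pdia6 set was at 0.84, and 1 of the 3 other Xbp1 sets had the same sign. Syvn1 was at -0.44 (adjusted p = 0.0928) and -0.07 (adjusted p = 0.808) in that comparison. The interaction of genotype with saline against 4 weeks passed for 0 of the 36 and 1 probe set in all (0.0037%). An unadjusted p under 0.05 was found for 4 of the 36, against 1086 of all 27022.

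**Figure D5:**
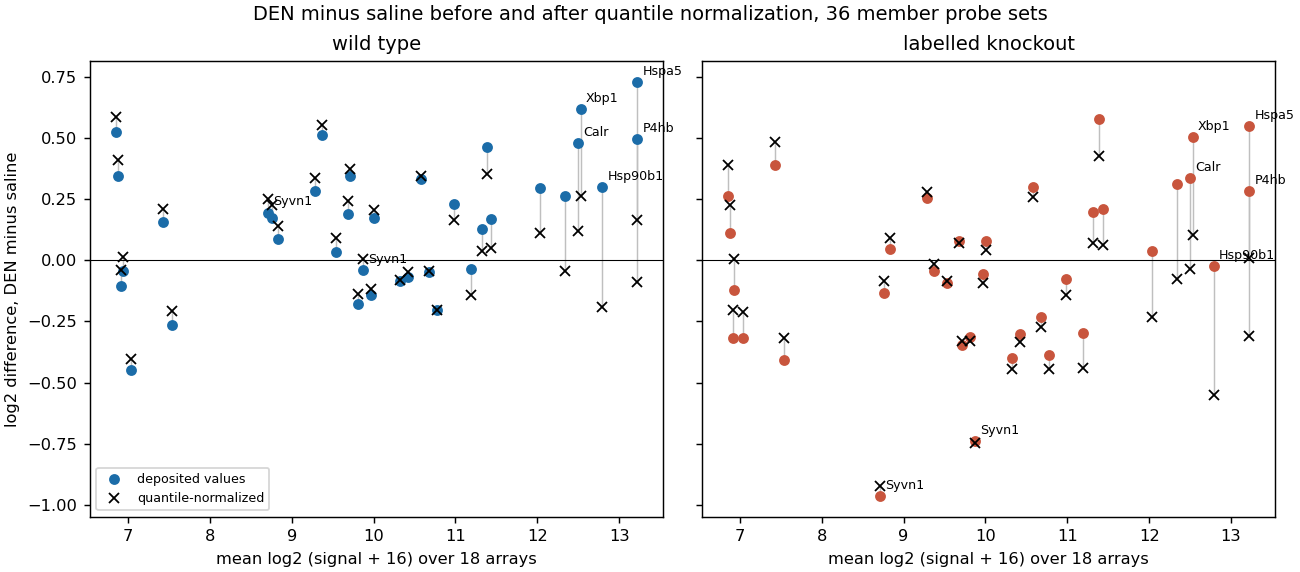
DEN minus saline (log2 difference) against the mean log2 signal of each of the 36 probe sets, in wild type (left) and labelled knockout (right); circles are deposited values, crosses quantile-normalized ones, joined by a line. The lines are long for bright genes such as Hspa5 (0.73 to 0.17 in the wild type) and short for both Syvn1 sets in the knockout, near -0.74 and -0.96.

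Further genes of the pathway were taken from 4 lists: 28 tested genes of ERAD, 45 of translocation, glycosylation and folding, 34 targets of ATF4 and the integrated stress response, and 15 sensors and membrane factors. Between the genotypes at 4 weeks 2 of the 28 ERAD genes rose (1.27% of all probe sets did), and none of the other 3 lists had a call. Edem3, a mannosidase that marks glycoproteins for degradation, rose by 0.61 (SE 0.10, limma adjusted p = 0.00210) and Marchf6, another ubiquitin ligase of the ER membrane, by 0.33 (SE 0.08, adjusted p = 0.0426). With DEN limma called 0 genes of the 4 lists. At an unadjusted p under 0.05 were 6 of 28, 6 of 45, 4 of 34 and 3 of 15, against 2424 of all 27022 probe sets. The interaction of genotype with DEN against 4 weeks passed for Edem3, at -0.62 (SE 0.14, adjusted p = 0.0424), and Txndc11, a thioredoxin-like protein of the ER membrane, at -1.01 (SE 0.20, adjusted p = 0.0210).

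From 4 weeks to DEN, 1 of the 28 ERAD genes, 5 of the 45 translocation and folding genes, 6 of the 34 ATF4 targets and 1 of the 15 sensors fell in the labelled knockout, and 2 of the 45 rose, where 4.71% of all probe sets fell and 3.53% rose. The calls of the smallest adjusted p were those of Spcs1, a signal peptidase subunit, which rose by 0.67 (SE 0.09, limma adjusted p = 0.000149), and Txndc11, which fell by 1.03 (SE 0.14, adjusted p = 0.000365). Aars, the alanyl-tRNA synthetase, fell by 0.60 (SE 0.11, adjusted p = 0.00247), Atf5 by 0.61 (SE 0.11, adjusted p = 0.00298), and Ppp1r15b and Ndrg1 by 0.45 and 0.66 (both adjusted p = 0.00448).
In the wild type 4 of the 34 ATF4 targets fell, 2 of the 45 folding genes fell and 2 rose, 1 of the 28 ERAD genes rose and 1 of the 15 sensors rose, where 2.44% of all probe sets fell and 1.97% rose. In lists of this length a count of 1 or 2 is close to what these shares give. Ndrg1 fell by 0.82 (SE 0.13, adjusted p = 0.00106), the transcription factor gene Atf5 by 0.67 (SE 0.11, adjusted p = 0.00196) and Mars1, the methionyl-tRNA synthetase, by 0.42 (SE 0.10, adjusted p = 0.0176). Creb3l3, an ER membrane transcription factor of the liver, rose by 0.35 (SE 0.08, adjusted p = 0.0130) and Dad1, a subunit of the oligosaccharyltransferase, by 0.53 (SE 0.13, adjusted p = 0.0242). Atf5 and Ndrg1 thus fell in both genotypes.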

How the data were processed

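Total RNA from frozen liver was labelled by a one-cycle protocol and hybridised to Affymetrix Mouse430_2 arrays, per the labels' protocols. Each probe set has 1 deposited value an array, a linear intensity that the authors made with MAS5, per the submitters' processing notes (version not given in the sources used here). Without the lowest and highest 2 percent the mean was 150 on every array.

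Of 45101 probe sets 64 were controls. Of the other 45037, 34945 carry 1 gene symbol in the platform table, 932 several and 9160 none. The 36 probe sets were chosen by the highest mean of a gene (both for Syvn1). From the intensities, log2 of the signal plus 16 was taken, and 27022 probe sets at or above the 40th percentile of the mean were fitted with limma 3.58.1 (R 4.3.3; lmFit, eBayes with an intensity trend; 1 mean per group, 12 residual degrees of freedom, two-sided, Benjamini-Hochberg over all tested probe sets). A fold change on this scale understates that of dim probe sets. Tables were handled with pandas 2.3.3 and drawn with matplotlib 3.10.9 in Python 3.11.15.

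The members, lists and tests were chosen with earlier results of these data known. Values on every array are given for members called in a comparison without saline arrays, for Syvn1, Ern1, Eif2ak3 and Atf6, and of the further lists at most 5 genes per comparison (ties kept) of the smallest adjusted p are named. Creld2, Derl3, Hspa5, Sdf2l1 and Asns were added after their values were seen. Lists are described by counts and medians. Alternatives were other scalings, numbers added (1 and 64), filters, a replicate block, the Gapdh ratio as covariate, subsets of arrays, the mean of a gene's probe sets, and leaving out each array; leaving out the 4-week arrays of the highest Gapdh ratio was added after seeing the data. Windows for promoter searches came from RefSeq (GRCm38.p6). Atf6, Derl1, Hyou1 and Manf had no window here, and protein sequences were not used here.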

Additional observations from a re-analysis of the deposited data

Results flagged for a closer look

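The genotype difference of Syvn1 (labelled knockout minus wild type, log2 scale) differed between the livers with DEN and those at 4 weeks by a test of the difference itself, limma's interaction term adjusted over 27022 probe sets. It was -1.36 on probe set 1428070_at and -1.05 on 1443609_s_at. On the first set all 3 knockout arrays were above all 3 wild-type arrays at 4 weeks and below them with DEN. On the second the arrays did not overlap at 4 weeks and overlapped with DEN. The 4-week and DEN groups differ in age as well as in injection.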

How the results depend on the processing

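Counts of the 36 probe sets called (limma, adjusted p under 0.05) are given by comparison, and the cause of each change was not tested. Knockout minus wild type at 4 weeks called 2, with 4 under quantile normalization, 1 with centred array medians, with cyclic loess, with no filter or without the 4-week arrays of the highest Gapdh ratio, 0 with no intensity trend or without the 6 saline arrays, and 0 to 1 when 1 array was left out. With DEN it called 1, and 0 with centred medians, no filter, a filter at the 60th percentile, no trend, the Gapdh covariate, without the saline arrays, with only the compared groups or with the mean of a gene's probe sets, and 0 to 1 when 1 array was left out.

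DEN minus 4 weeks called 3 in the wild type, with 1 under centred medians, no filter or without the arrays of the highest Gapdh ratio, 0 with no trend, the Gapdh covariate, without the saline arrays or with only the compared groups, and 0 to 5 when 1 array was left out (0 without replicate 3 at 4 weeks or DEN replicate 2, 5 without DEN replicate 3). In the knockout it called 9, with 1 under the Gapdh covariate, 3 with the mean of probe sets, and 5 to 9 when 1 array was left out (5 without replicate 1 at 4 weeks). DEN minus saline called 4 in the wild type, with 0 under quantile or loess normalization, 1 with the mean of probe sets, and 3 to 9 when 1 array was left out (9 without DEN replicate 3). In the knockout it called 9, with 5 under no trend or the mean of probe sets, and 5 to 10 when 1 array was left out (5 without saline replicate 1). Saline minus 4 weeks called 4 in the wild type, with 1 under quantile normalization, 2 under loess, no trend, the Gapdh covariate or without the arrays of the highest Gapdh ratio, and 2 to 4 when 1 array was left out (2 without replicate 2 at 4 weeks or saline replicate 1 or 2). In the knockout it called 10, with 6 under quantile normalization or the mean of probe sets, 4 under loess, and 7 to 9 when 1 array was left out. The interaction of genotype with DEN against 4 weeks called 2, with 1 under centred medians, no filter, no trend, the Gapdh covariate, without the saline arrays, with only the compared groups, the mean of probe sets or without the arrays of the highest Gapdh ratio, and 1 to 7 when 1 array was left out (7 without wild-type DEN replicate 3, 5 without knockout DEN replicate 1). The interaction against saline called 0, and 0 to 1 when 1 array was left out.

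Some values changed sign. With the mean of a gene's probe sets, Pdia6 was at -0.117 between genotypes at 4 weeks, 0.191 in the knockout from 4 weeks to saline and 0.010 in the interaction; Syvn1 1443609_s_at in the wild type was at 0.095 (DEN minus 4 weeks), 0.078 (DEN minus saline) and 0.017 (saline minus 4 weeks). Atf4 was at -0.176 in the wild type (DEN minus saline) and 0.327 in the knockout (saline minus 4 weeks), where Pdia4 was at 0.109; in the wild type Hyou1 was at 0.046 and Xbp1 at 0.127 (saline minus 4 weeks). With the Gapdh covariate, Syvn1 1443609_s_at was at 0.036 (DEN minus 4 weeks) and 0.045 (DEN minus saline) in the wild type, and Derl1 at 0.019 and Pdia3 at -0.020 in the knockout (DEN minus 4 weeks). Quantile normalization gave, for DEN minus saline, 0.004 for Syvn1 1443609_s_at, -0.189 for Hsp90b1, -0.090 for P4hb and -0.045 for Canx in the wild type, and -0.309 for P4hb, -0.036 for Calr and -0.077 for Canx in the knockout. For saline minus 4 weeks it gave 0.131 for P4hb, 0.066 for Calr and 0.095 for Xbp1 in the wild type and 0.112 for P4hb in the knockout. Loess gave, for DEN minus saline, -0.053 for Hsp90b1 and -0.033 for Canx in the wild type and -0.032 for Derl2, -0.197 for P4hb, -0.047 for Calr, -0.051 for Canx and -0.034 for Sec61b in the knockout, and for saline minus 4 weeks 0.039 for Calr and 0.082 for Xbp1 in the wild type. When 1 array was left out, Syvn1 1443609_s_at in the wild type ranged from -0.359 to 0.082 (DEN minus 4 weeks; positive without DEN replicate 3), from -0.265 to 0.176 (DEN minus saline; positive without DEN replicate 3 and, at 0.026, without saline replicate 2) and from -0.160 to 0.001 (saline minus 4 weeks; positive without replicate 2 at 4 weeks). It was also at 0.001 there without the arrays of the highest Gapdh ratio. Syvn1 1428070_at in the knockout ranged from -0.202 to 0.045 (saline minus 4 weeks; positive without replicate 3 at 4 weeks).

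In comparisons without saline arrays, of 1562 alternative values for single probe sets and medians 1398 kept direction and call, 119 lost and 38 gained it. With saline arrays 1237 of 1421 kept both, 113 lost and 37 gained the call. No pairing by replicate number was seen in the deviations from the group means, though with 3 arrays a group this cannot exclude one. Same-numbered arrays correlated at -0.0978 to 0.116 (median -0.00224, 2 of 45 over 0.1). Arrays of other numbers correlated at -0.157 to 0.214 (median 0.000822, 1 of 90 over 0.1). With a replicate block the knockout's count from 4 weeks to saline was 9 in place of 10, and the other counts stayed at 2, 0, 1, 3, 9, 4, 9, 4, 2, 0 and 0. Centring array medians moved the median of all probe sets by over 0.1 in 4 comparisons: between genotypes with saline from 0.04 to -0.09, in the knockout from -0.09 to 0.02 (DEN minus saline) and from 0.07 to -0.05 (saline minus 4 weeks), and for the interaction of genotype with DEN against saline from -0.05 to 0.13, where 15 in place of 29 of the 36 were then lower.

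With 3 arrays a group the interactions of single probe sets carry standard errors of 0.11 to 0.50, so a missed threshold does not show that values are alike. In at least 1 comparison where it was called, another probe set of the gene had the opposite sign for Sel1l, Derl1, Hyou1, Ern1, Hspa5, Xbp1, Ero1b, Pdia6 and Canx. Hmgn1 did not check the labels, the genotypes are separate lines, and the saline arrays differ in range.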
